A study of Homo sapiens with 4 samples.

Results

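The B cell receptor and its proximal signalling were followed through 9 genes, picked by symbol, of the 22187 in 4 gene tables. They are the receptor's signalling chains CD79A and CD79B, the surface proteins CD22, CD81 and CD40, the kinases LYN, SYK and BTK, and the adaptor BLNK. The tables come from KMS18 and KMS28BM, human multiple myeloma lines (K18 and K28BM in the sample labels) labelled as bone marrow plasma cells with the t(4;14) translocation. Each line gave 1 library from cells with a control construct labelled Luc and 1 from cells in which PKCα, the kinase encoded by PRKCA, was stably knocked down. Every culture is thus a t(4;14) cell line, and nothing in the labels says whether a knockdown culture was 1 clone or a pool. With 1 library per line and construct, no change within a line can be checked on replicates, and fewer cells making an RNA cannot be told apart from less RNA per cell. A p-value over both lines rests on the spread left among these 4 libraries after line and construct, with 1 residual degree of freedom. In the main fit that spread is pooled with the spread of other genes, which weighs as 5.85 degrees of freedom. Neither covers repeat cultures of a line.

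On a mature B cell the antigen receptor is a membrane immunoglobulin held by a CD79A and CD79B pair, whose cytoplasmic tails carry the tyrosine motifs that signal. LYN and other SRC family kinases phosphorylate those motifs, SYK docks on them, and BTK and PLCG2 are assembled on the adaptor BLNK to release calcium and diacylglycerol, which activates PKC enzymes. Plasma cells normally turn most of this machinery down as they move from antigen recognition to antibody secretion.

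The labelled identity held on the plasma cell markers: 10 of 10 were at or above 1 FPKM in every library, and their summed level was lower with the knockdown in both lines. The sum read 2350 FPKM in the control and 1482 in the knockdown of KMS18, with 2570 and 1490 in KMS28BM; 8 of the 10 fell and 1 (CD38) rose in the edgeR test over both lines. FPKM is a count of fragments scaled to gene length and library size, so levels can be set side by side between genes. Of 10 B cell markers, 2 or 3 per library reached 1 FPKM (summed 30.4 to 48.3 FPKM), and TCL1A had no row in any table. Summed T and NK cell markers were at 1.51 to 28.4 FPKM. CD3E, a T cell receptor signalling chain, read 7.32 (control) and 20.95 FPKM (knockdown) in KMS18, with 1 and 3.27 FPKM in KMS28BM. TRAC read 2.13 and 4.94 FPKM in KMS18, with 0.03 and 0.11 in KMS28BM. The rest of that list (CD3D, CD3G, CD2, CD8A, NKG7, KLRD1 and GNLY) stayed under 1 FPKM in every library. Monocyte markers summed to 0.84 to 6.99 FPKM with CD14 at or below 0.08 FPKM, and S100A9 made up 6.41 FPKM of the highest of these sums. The granulocyte, erythroid and stromal lists summed to at most 2.61 FPKM. The part of such cells in the results below was not tested. PRKCA itself read 7.46 FPKM in the control and 1.47 in the knockdown of KMS18, with 10.86 and 2.43 in KMS28BM, so both knockdown libraries sit on the labelled side.

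Each line kept 5 of the 9 genes at or above 1 FPKM in both of its libraries, and the sets differed. LYN, BLNK and CD81 were kept by both lines. CD79B and BTK were kept by KMS18 alone, CD79A and CD40 by KMS28BM alone, and SYK and CD22 by neither. Over all 22187 genes, 45.5% were kept by both lines, 4.49% by KMS18 alone, 3.60% by KMS28BM alone and 46.4% by neither.

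**Figure D1:**
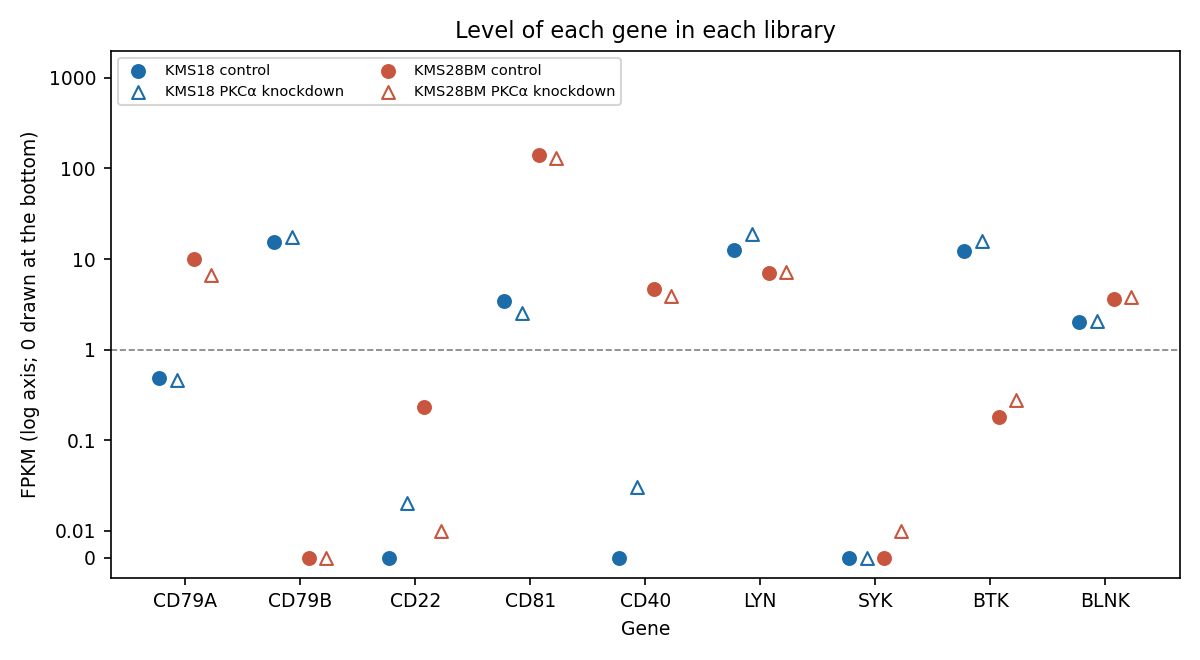
FPKM (log axis) of the 9 genes in each of the 4 libraries; filled circles are control and open triangles knockdown libraries, blue KMS18 and red KMS28BM, and the dashed line marks 1 FPKM. The colours swap places between CD79A and CD79B: CD79B is at 15.38 and 17.31 FPKM in KMS18 and at 0 in KMS28BM, and CD79A is above 1 FPKM in KMS28BM alone.

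The signalling chains of the receptor were split between the lines. CD79A (chromosome 19, 41877120 to 41881372, plus strand, GRCh38) read 0.48 FPKM in the KMS18 control, 0.46 in its knockdown, 9.89 in the KMS28BM control and 6.72 in the KMS28BM knockdown. Both KMS28BM values lay above both KMS18 values. In library-scaled counts KMS28BM held 18.7 times the KMS18 level in the controls (450 against 22 counts, 95% counting interval 12.2 to 30.1) and 13.3 times in the knockdowns (interval 8.58 to 21.9).

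CD79B (chromosome 17, 63928740 to 63932354, minus strand, GRCh38), the partner chain, ran the other way. It was at 15.38 and 17.31 FPKM in KMS18 (651 and 756 counts) and had no row in either KMS28BM table. Taking 3 counts per library as the floor that a count of 0 allows, KMS18 was at least 238-fold higher among the controls and at least 277-fold higher among the knockdowns. Neither line had both chains at 1 FPKM. The gene overlaps AC127029.3 on the same strand in the annotation, a gene with no row under that symbol in these tables.

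CD22, an inhibitory lectin receptor that recruits phosphatases to the activated receptor (chromosome 19, 35319261 to 35347355, plus strand, GRCh38), held 0 FPKM in the control and 0.02 in the knockdown of KMS18, with 0.23 and 0.01 in KMS28BM. Those values rest on at most 4.71 expected counts. In both KMS28BM tables the listed CD22 length was 569 bases, that of a transcript annotated as a retained intron; its coding transcripts run from 542 to 3268 bases. CD22 was not detectable above the floor of 3 counts in 3 of 4 libraries.

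CD81, a tetraspanin of the B cell co-receptor (chromosome 11, 2376177 to 2397419, plus strand, GRCh38), had the widest range of the 9 genes on the log2(FPKM + 1) scale, though not the largest fold between the lines. KMS18 held 3.43 FPKM in the control and 2.55 in the knockdown, against 139.24 and 130.20 in KMS28BM, where it ranked at percentiles 97.3 and 97.0 of all genes. The lines stood 42.7-fold apart in the control libraries (counting interval 36.5 to 50.3) and 52.5-fold apart in the knockdown libraries (interval 43.9 to 63.5).

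CD40, the receptor for T cell help that signals through TRAF proteins (chromosome 20, 46118272 to 46129863, plus strand, GRCh38), held 4.72 and 3.93 FPKM in KMS28BM, on 302 and 229 counts. In KMS18 it had no row in the control and 1 count in the knockdown. The control difference was at least 91.9-fold. The knockdown ratio was 208, with a counting interval from 37.0 to 8267. The lone KMS18 count was listed with a length of 822 bases, that of a transcript annotated for nonsense-mediated decay.

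Among the kinases, LYN (chromosome 8, 55879813 to 56014168, plus strand, GRCh38), which starts the signal and also feeds its inhibitory arm, was present in every library. KMS18 held 12.71 and 18.96 FPKM, against 7.05 and 7.15 in KMS28BM. Both KMS18 values lay above both KMS28BM values, by 1.91-fold in the controls and 2.88-fold in the knockdowns. SYK, which docks on the phosphorylated CD79 tails (chromosome 9, 90801787 to 90898549, plus strand, GRCh38), had 1.80 expected counts in the KMS28BM knockdown and no row elsewhere. Its level was below the floor of 3 counts in all 4 libraries.

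BTK, the kinase that activates PLCG2 (chromosome X, 101349447 to 101390796, minus strand, GRCh38), held 12.29 and 15.84 FPKM in KMS18, against 0.18 and 0.28 in KMS28BM. On counts these were 1076 and 1347 against 4 and 13. KMS18 stood 295-fold higher in the controls (counting interval 115 to 1083) and 114-fold higher in the knockdowns (interval 66.4 to 214). The listed BTK length was 2347 and 2283 bases in KMS18, within the 2248 to 2767 bases of its coding transcripts, and 617 and 1222 bases in KMS28BM. The FPKM of the few KMS28BM counts is scaled to that shorter length.

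BLNK, the adaptor that joins SYK to BTK and PLCG2 (chromosome 10, 96191702 to 96271587, minus strand, GRCh38), was the most even of the genes kept by both lines. KMS18 held 2.01 and 2.05 FPKM, against 3.60 and 3.78 in KMS28BM. KMS28BM was higher by 1.68-fold in the controls (counting interval 1.35 to 2.11) and 1.90-fold in the knockdowns (interval 1.52 to 2.39). ZNF518A overlaps BLNK on the opposite strand and reached 8.7 FPKM. The library kit does not keep strand, so reads in the overlap cannot be told apart.

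By level, the order in the KMS18 control was CD79B, LYN, BTK, CD81, BLNK and CD79A, with CD22, CD40 and SYK at 0. In the KMS28BM control it was CD81, CD79A, LYN, CD40, BLNK, CD22 and BTK, with CD79B and SYK at 0. The first 3 genes of KMS18 lay between 12.29 and 15.38 FPKM, and the knockdown library put LYN ahead of CD79B. Neighbours that close cannot be ordered with 1 library per construct.

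The test over all 4 libraries, edgeR's quasi-likelihood test with Benjamini-Hochberg adjustment over 14870 genes, put 4 of the 9 higher in KMS28BM (CD79A, CD81, CD40 and BLNK) and 3 lower (CD79B, BTK and LYN). Over all genes tested it called 30.6% higher and 32.3% lower in KMS28BM, 62.9% in all, so a call between the lines is common. CD22 and SYK were below the count filter and had no test. CD79B, BTK and CD40 passed that filter only through the line where they are high, so their calls carry little beyond the levels given above. The sizes ranged widely: the log2 difference, KMS28BM minus KMS18, was 5.56 for CD81 (SE 0.13, edgeR adjusted p = 4.07e-07), and 6.18% of genes tested differed more. It was 3.98 for CD79A (SE 0.28, edgeR adjusted p = 3.43e-05), with 9.25% of genes beyond it. It was -1.23 for LYN (SE 0.16, edgeR adjusted p = 0.000512), with 29.4% beyond. It was 0.84 for BLNK (SE 0.23, edgeR adjusted p = 0.0167), with 42.2% beyond, and DESeq2 did not call BLNK (adjusted p = 0.0978).

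Promoter sequences were read from RefSeq's table (GRCh38.p14, 250 bases before to 50 after a start), which held 8 windows for 5 of the 9 genes: CD79A, CD22, SYK, BTK and BLNK. CD79B, CD40, LYN and CD81 had no entry. The search took 4 motifs on both strands: GAGGAA, the core bound by PU.1 and Spi-B; CAGGTG, an E-box bound by E proteins such as TCF3; the octamer ATGCAAAT of the POU2F factors; and CCCNNGGG, the core of EBF1 sites. Of 35116 promoter windows in the table, 27.9% held GAGGAA, 20.6% CAGGTG, 1.77% the octamer and 19.1% CCCNNGGG. The windows below are shown for CD79A and BTK, each kept by 1 line, for BLNK, kept by both, and for SYK, kept by neither, in the direction of the gene with the motif in capitals.
CD79A, CAGGTG, chr19:41877086-41877115, plus strand: ttgtggccaccaCAGGTGcagggagcagtt
BTK, GAGGAA on the reverse strand, chrX:101390948-101390977, minus strand: tcccgatcgcacTTCCTCatgggagtcggt
BTK, GAGGAA on the reverse strand, chrX:101390806-101390835, minus strand: actcaccccgacTTCCTCccgccccgcagc
BTK, GAGGAA on the reverse strand at its downstream start, chrX:101386165-101386194, minus strand: ctcagactgtccTTCCTCtctggactgtaa
BLNK, CAGGTG on the reverse strand, chr10:96271790-96271819, minus strand: atagcatgCACCTGctggaaacagactata
SYK, GAGGAA, chr9:90801725-90801754, plus strand: gcgcgacactggGAGGAAgtgcgggccgcc
SYK, GAGGAA, chr9:90801775-90801804, plus strand: gttgcccaaaatGAGGAAgagccgcgggcc

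The GAGGAA core stood in both starts of BTK, on in KMS18 and nearly off in KMS28BM, and in windows of SYK, off in both lines. The E-box stood in CD79A and BLNK and in 2 overlapping SYK windows, as 1 site. BTK also held 1 CCCNNGGG match, CD22 had no match to any of the 4 motifs in its window, and the octamer was found in none of the 8 windows. A match is a string of letters and not a measured site.

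Factors that read such motifs were measured in the same tables. TCF3 was at 222.89 to 292.34 FPKM in all libraries, and SPIB, named after its values were seen, at 15.14 to 36.38 FPKM. SPI1, which encodes PU.1, had no row. PAX5, the factor of B cell commitment that binds the CD79A and BLNK genes in B cells, held 1.61 and 2.29 FPKM in KMS18 (516 and 729 counts) and had no row in KMS28BM, at least 188-fold lower there in the controls. EBF1, its partner in early B cells, held 0.04 and 0.14 FPKM in KMS18, against 0.40 and 0.44 in KMS28BM. CD79A was the higher in the line without a PAX5 row, and CD79B in the line with one.

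No call was made for the knockdown among the 9 genes. Of the 7 tested, 0 rose and 0 fell (edgeR quasi-likelihood test), 0 had an unadjusted p under 0.05, and DESeq2 and limma on log2(FPKM + 1) also called 0. Over all 14870 genes the same test called 8.82%, 3.57% higher and 5.25% lower. The median log2 difference of the 7 was -0.06, against 0.02 over all genes tested. A p that misses the threshold does not show that a level stayed the same, and the values follow.

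**Figure D2:**
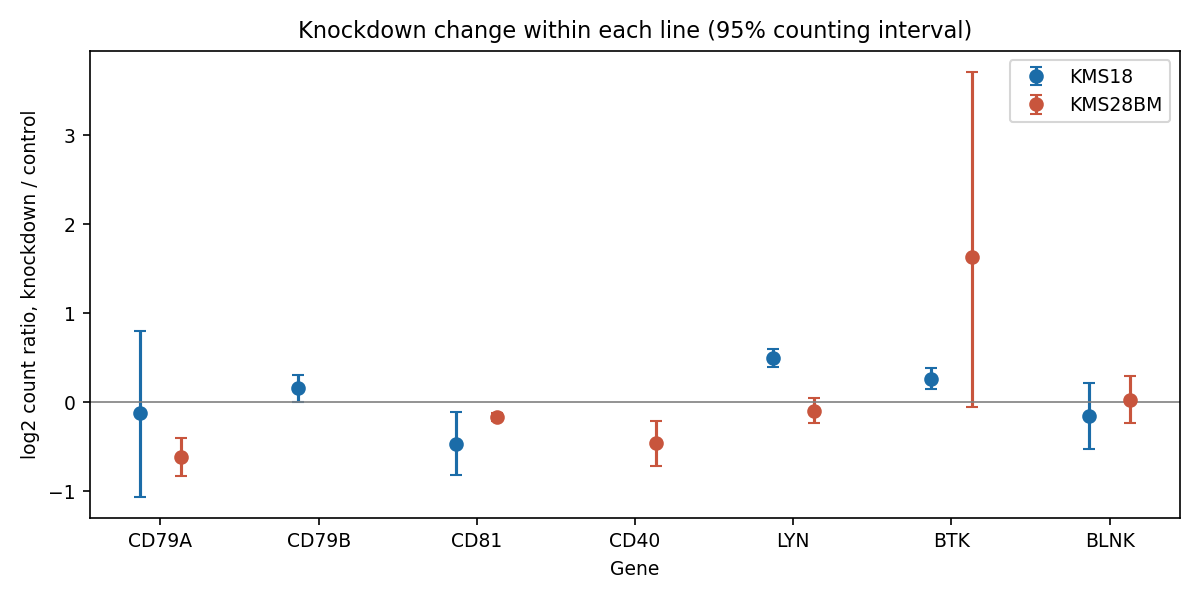
Log2 ratio of library-scaled counts, knockdown over control, for the 7 tested genes in KMS18 (blue) and KMS28BM (red), with 95% intervals for counting error; a line with 3 counts or fewer in a library is left out. LYN sits at 0.50 in KMS18 and -0.10 in KMS28BM, and CD81 is below 0 in both lines.

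CD81 came nearest to a call. KMS18 had 159 control and 120 knockdown counts and KMS28BM 7435 and 6928, lower with the knockdown in 2 of 2 lines. Over the 2 lines together the log2 change came to -0.27 (SE 0.12; edgeR adjusted p = 0.212). Within the lines the ratio was -0.47 (counting interval -0.82 to -0.11) and -0.17 (interval -0.21 to -0.12).

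LYN had the steepest change in KMS18 of the genes with more than 3 counts per library there. Counts went from 1470 to 2161 in that line, a log2 ratio of 0.50 (counting interval 0.40 to 0.59), and from 841 to 823 in KMS28BM, a log2 ratio of -0.10 (interval -0.24 to 0.04). The KMS18 knockdown is the high library of the 4. The joint estimate was 0.21 (SE 0.16; edgeR adjusted p = 0.450). Whether the lines differ in this change could not be tested, because a model with that term leaves no residual degree of freedom.

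CD79A is kept by KMS28BM. In that line its counts went from 450 to 308, a log2 ratio of -0.61 (counting interval -0.83 to -0.40), while in KMS18 they were 22 and 21 (log2 ratio -0.13, interval -1.06 to 0.80). CD40 likewise went from 302 to 229 counts in KMS28BM, a log2 ratio of -0.46 (interval -0.72 to -0.21). The joint log2 estimates were -0.46 for CD79A (SE 0.26; adjusted p = 0.321 in edgeR) and -0.38 for CD40 (SE 0.43; adjusted p = 0.630).

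The KMS18 pair had small positive ratios: CD79B 0.16 (counting interval 0.00 to 0.31) and BTK 0.27 (interval 0.15 to 0.38). BTK in KMS28BM rests on 4 and 13 counts and has an interval from -0.06 to 3.71. BLNK was the flattest, at -0.15 (interval -0.53 to 0.22) in KMS18 and 0.03 (interval -0.24 to 0.29) in KMS28BM, with 85.5% of genes tested showing a larger change over both lines. These intervals cover counting error alone, and such an interval excluded 0 for 59.8% of genes in KMS18 and 59.0% in KMS28BM. No gene of the 9 passed a size rule of an absolute difference of 1 in log2(FPKM + 1) with at least 1 FPKM in 1 library of the line. In KMS18, 1.46% of genes passed it (0.818% higher and 0.647% lower), and in KMS28BM 1.99% (1.24% higher and 0.751% lower).

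Transcript makeup moved little where levels were above 1 FPKM. The listed gene length, a mean over the transcripts counted, changed with the knockdown by 0.12 on the log2 scale for BLNK in KMS18 (1694 to 1564 bases) and by 0.12 for CD40 in KMS28BM (1670 to 1534 bases). These lay at percentiles 83.6 and 87.3 of 9669 genes at 1 FPKM in every library. Over those genes the medians were 0.034 in KMS18 and 0.030 in KMS28BM, and the 90th percentiles 0.16 and 0.14. CD79A, LYN and CD81 changed by at most 0.04 in either line, and CD79B by 0.04 in KMS18.

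The wider pathway was read from 7 lists of 167 genes around the 9, chosen with earlier results of these data known. Of 143 tested, 12 rose and 15 fell with the knockdown, 18.9% against 8.82% of all genes, and their median log2 change was 0.02, as over all genes. Without the line as a term in the model, edgeR made no knockdown call over all genes (215 at an unadjusted p under 0.05). Testing all listed genes with no count filter left 15 of the calls checked in these lists short of the threshold. Among them were those of YES1, FGR, GAB1, SOS1, STIM1, SH2B3, PTPN22, INPP5D, CBL, TRAF1, BACH2, POU2F1, IKZF3 and IRF4. The call of ETS1 was not checked. Between the lines, 36 were higher and 68 lower in KMS28BM, 25.2% and 47.6% of those tested, against 30.6% and 32.3% of all genes. Of these 104, 19 were under 10 counts in both libraries of 1 line, so they passed the filter only through the other. The median absolute log2 difference between lines was 1.02, against 0.66 over all genes tested.

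**Figure D3:**
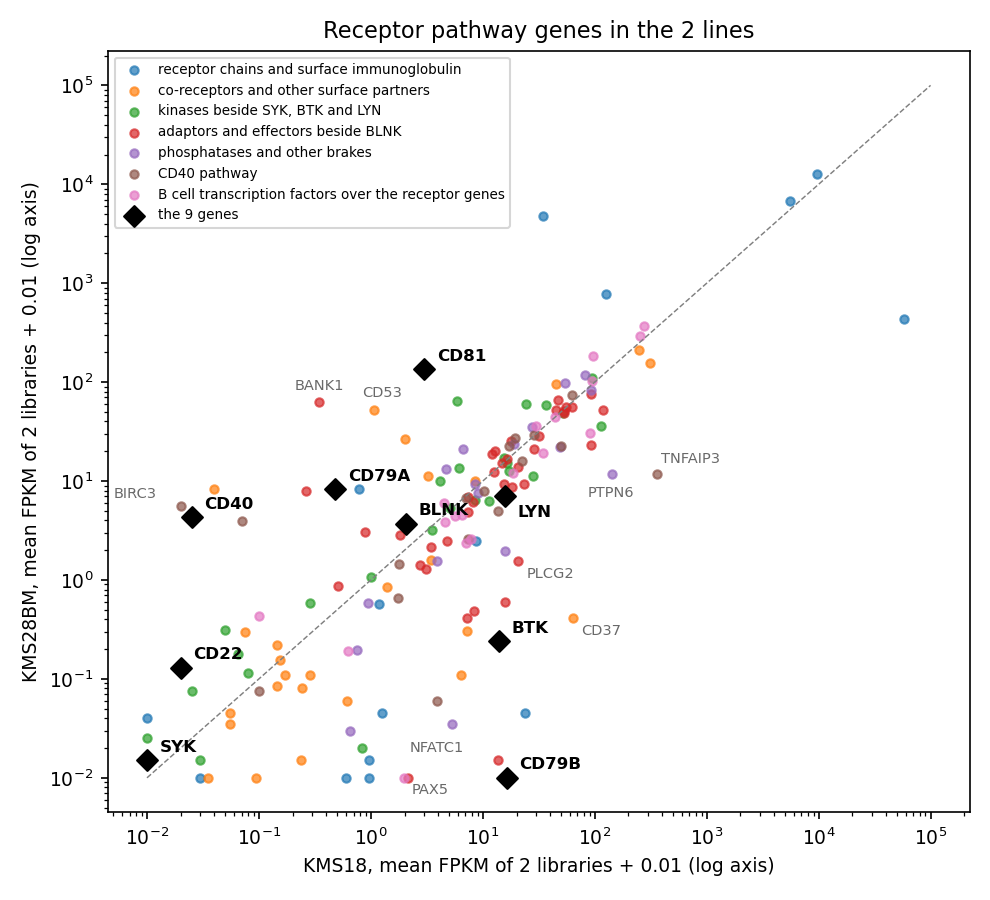
Mean FPKM of the 2 KMS18 libraries (horizontal) and of the 2 KMS28BM libraries (vertical), each plus 0.01, on log axes, for the 9 genes (black diamonds) and the 7 pathway lists (coloured points); the dashed line marks equal levels. CD79B and BTK lie far below the line beside CD37 and PLCG2, and CD81, CD79A and CD40 lie above it beside BANK1 and CD53.

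Among the listed immunoglobulin genes, lambda light chains had the highest levels. The values are per gene, so membrane and secreted immunoglobulin were not told apart. IGLL5, named after its values were seen, held 34.10 and 34.29 FPKM in KMS18, against 6015.5 and 3547.5 in KMS28BM. IGLC3 held 61713 and 53064 FPKM in KMS18, against 567.6 and 306.7 in KMS28BM, while IGLC2 ran from 9098 to 15861 FPKM; these copies are near-identical and their reads can be split between them. Heavy chain constant genes were low: IGHG2 held 24.53 and 23.08 FPKM in KMS18 and at most 0.05 FPKM in KMS28BM, and IGHM and IGHD, the receptor classes of mature naive B cells, had no row. IGHG1 held 0.51 and 0.66 FPKM in KMS18 and had no row in KMS28BM. IGHA1 (log2 difference 2.16, SE 0.27, edgeR adjusted p = 0.00926) and IGHA2 (1.79, SE 0.26, adjusted p = 0.0126) rose with the knockdown. They were the 2 calls among 12 tested, 16.7% against 8.82% of all genes, and none fell. IGHA1 reached 14.12 FPKM in the KMS28BM knockdown, and the pair are near-identical copies as well.

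Among 29 co-receptors and surface partners, 6 were kept by both lines, 3 by each line alone and 17 by neither. The shares were 20.7% for both lines, 10.3% for each line alone and 58.6% for neither. Over all genes they were 45.5% for both, 4.49% for KMS18 alone, 3.60% for KMS28BM alone and 46.4% for neither. The genes kept by neither included MS4A1 (CD20, at most 0.17 FPKM) and PTPRC (at most 0.05 FPKM). PTPRC is the CD45 phosphatase that keeps SRC kinases active. Both were named after their values were seen. Among the other tetraspanins, CD37 held 56.88 and 70.85 FPKM in KMS18, against 0.45 and 0.35 in KMS28BM. CD53, named after its values were seen, held 0.60 and 1.52 FPKM in KMS18, against 53.44 and 52.16 in KMS28BM. CD63 was above 208 FPKM in every library. IFITM1, a membrane protein that associates with CD81, held 0 and 0.06 FPKM in KMS18, against 6.46 and 10.22 in KMS28BM. With the knockdown, LILRB4, an inhibitory receptor, rose by a log2 of 2.11 (SE 0.20, edgeR adjusted p = 0.00482). TNFRSF17, the BCMA survival receptor, fell by 0.68 (SE 0.09, edgeR adjusted p = 0.0110). These were the 2 knockdown calls among 20 tested, 10% against 8.82% of all genes.

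Of 25 other kinases of the receptor, 16 (64%) were kept by both lines and 0 by 1 line alone. Over all genes 45.5% were kept by both lines, 4.49% by KMS18 alone and 3.60% by KMS28BM alone. In the line test 8 of 21 were higher and 7 lower in KMS28BM, against 30.6% and 32.3% of all genes. FGR, a SRC family kinase related to LYN, held 125.87 and 100.25 FPKM in KMS18, against 49.51 and 22.94 in KMS28BM, above LYN in every library. It fell with the knockdown (log2 estimate -0.79, SE 0.18; edgeR adjusted p = 0.0408), by 0.41 in KMS18 and 1.18 in KMS28BM, each being the value without a library of the other line, and YES1, another of the family, rose (0.55, SE 0.11, adjusted p = 0.0289). PIK3R2, a regulatory subunit of PI3-kinase, rose by 0.72 (SE 0.10, edgeR adjusted p = 0.0106). These were the 3 knockdown calls among 21 tested, 14.3% against 8.82% of all genes. AKT2 was between 87.11 and 112.04 FPKM throughout. LCK and SRC, which had the widest line differences past the test among these kinases, stayed under 1 FPKM in every library.

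Of 39 adaptors and effectors, 30 were kept by both lines, 5 by KMS18 alone and 3 by KMS28BM alone. These were 76.9%, 12.8% and 7.69%, against 45.5%, 4.49% and 3.60% of all genes. In the line test 8 of 39 were higher and 20 lower in KMS28BM, against 30.6% and 32.3% of all genes. PLCG2, VAV2, VAV3, DAPP1 and BANK1 are named here after their values were seen. PLCG2, the phospholipase that BTK activates, held 19.86 and 21.33 FPKM in KMS18, against 1.55 and 1.53 in KMS28BM. The guanine exchange factors VAV2 and VAV3 and the adaptor DAPP1 were all above 5 FPKM in KMS18 and under 1 FPKM in KMS28BM. BANK1, a B cell scaffold protein that binds LYN, ran the other way, at 0.34 and 0.33 FPKM against 51.84 and 72.93 FPKM. NFATC1, a calcium-regulated transcription factor, held 11.71 and 15.36 FPKM in KMS18 and had at most 1 count in KMS28BM. LCP2, the T cell relative of BLNK, held 1.70 and 2.54 FPKM in KMS18 and had no row in KMS28BM.

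Of these adaptors, 1 rose and 4 fell with the knockdown among 39 tested, 12.8% called against 8.82% of all genes. RASGRP3, a RAS activator that binds diacylglycerol, held 114.5 FPKM in the control and 70.23 in the knockdown of KMS18, with 27.88 and 18.07 in KMS28BM, and fell (log2 estimate -0.69, SE 0.09; edgeR adjusted p = 0.0104). HCLS1, a LYN substrate that binds actin, fell by 0.62 (SE 0.09), GAB1 by 0.66 (SE 0.10) and SOS1 by 0.49 (SE 0.11), with edgeR adjusted p of 0.0136, 0.0153 and 0.0377. STIM1, the sensor that opens store-operated calcium entry, rose by 0.44 (SE 0.10, adjusted p = 0.0410). RAC2 was at 51.71 to 122.7 FPKM and was not called for the knockdown.

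Phosphatases and other brakes gave 4 rises and 1 fall with the knockdown among 17 tested, 29.4% called against 8.82% of all genes. SH2B3 rose by 0.69 (SE 0.11), PTPN22 by 0.65 (SE 0.12) and INPP5D, the lipid phosphatase SHIP1, by 0.52 (SE 0.11), with edgeR adjusted p from 0.0151 to 0.0309. CBL, a ubiquitin ligase for SYK and other kinases, fell by 0.56 (SE 0.10, adjusted p = 0.0201). PTPN6, the SHP1 phosphatase that CD22 recruits, held 162.13 and 125.74 FPKM in KMS18, against 12.80 and 10.55 in KMS28BM, a gap of 25.8-fold in the controls (counting interval 23.3 to 28.7). DOK2 held 3.80 and 6.88 FPKM in KMS18 and at most 0.05 FPKM in KMS28BM. INPPL1 and DUSP22 ran from 73.84 to 121.04 FPKM and were not called for the knockdown. Between the lines INPPL1 was higher in KMS28BM (log2 0.42, edgeR adjusted p = 0.00768) and DUSP22 lower (log2 -0.25, edgeR adjusted p = 0.0473).

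Of 17 genes of the CD40 pathway, 12 (70.6%) were kept by both lines, 2 by KMS18 alone and 2 by KMS28BM alone. Over all genes these shares were 45.5%, 4.49% and 3.60%. In the line test 3 of 16 were higher and 8 lower in KMS28BM, against 30.6% and 32.3% of all genes. BIRC2 and BIRC3, ubiquitin ligases that act with TRAF2 and TRAF3 below CD40, did not exceed 0.08 FPKM in KMS18 and ran from 3.89 to 6.15 in KMS28BM, the line that keeps CD40. TNFAIP3, a brake on NF-kB, held 338.1 and 377.2 FPKM in KMS18, against 8.43 and 15.21 in KMS28BM. NFKB2 was at 60.18 to 77.65 FPKM throughout. With the knockdown 2 of 16 rose and 1 fell, 18.75% called against 8.82% of all genes. TRAF5 rose by 1.07 (SE 0.14, edgeR adjusted p = 0.0102) and TRAF1 by 0.94 (SE 0.21, edgeR adjusted p = 0.0439). ICAM1, an adhesion molecule induced by CD40, fell by 0.74 (SE 0.10, edgeR adjusted p = 0.00998).

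Transcription factors of the B lineage had the largest share of knockdown calls among the 7 lists, with 7 of 18 lower and 0 higher, against 5.25% lower and 3.57% higher over all genes, and a median log2 difference of -0.33 (0.02 over all genes tested). The plasma cell markers moved with them: 8 of 10 fell, XBP1 and IRF4 being in both lists, among them SLAMF7 (-0.95), MZB1 (-0.83), FKBP11 (-0.82), DERL3 (-0.67) and SDC1 (-0.65), named after their values were seen. What part the 2 groups have in each other was not tested. XBP1, which drives secretion, fell by 0.90 (SE 0.10), POU2AF1, the coactivator of octamer factors, by 0.77 (SE 0.10) and BACH2 by 0.81 (SE 0.13). POU2F1 fell by 0.63 (SE 0.11), IKZF3 by 0.56 (SE 0.10) and IRF4 by 0.73 (SE 0.15), with edgeR adjusted p from 0.00671 to 0.0338 over the 6. IRF4 differed in size between the lines, at -1.03 in KMS18 and -0.43 in KMS28BM, so its value without either library of a line is that of the other. ETS1, named after its value was seen, was the seventh (-0.59, SE 0.14, edgeR adjusted p = 0.0473). PAX5 did not pass (0.44, SE 0.25, adjusted p = 0.337).

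**Figure D4:**
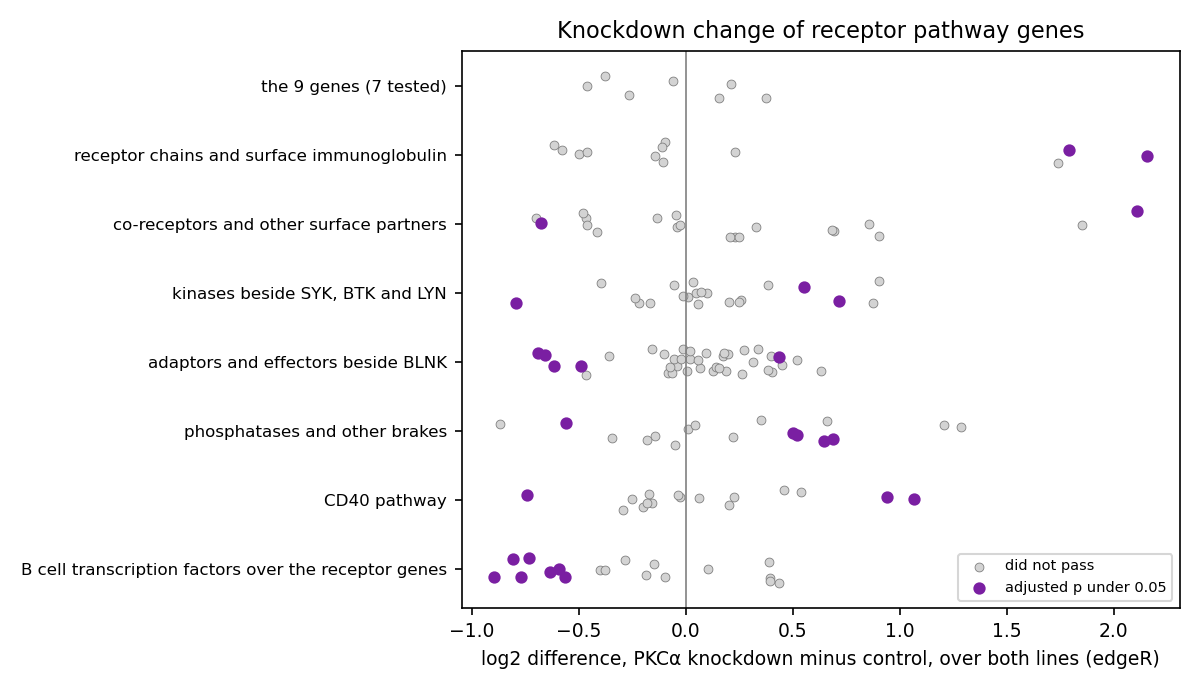
Log2 difference over both lines, PKCα knockdown minus control, from the edgeR fit for each tested gene of the 9 and of the 7 pathway lists; purple points passed an adjusted p of 0.05 and grey points did not, and the vertical scatter within a row has no meaning. None of the 7 tested points in the top row is purple, and 7 of 18 in the bottom row are, all below 0.

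CD81, the gene with the widest log2(FPKM + 1) range among the 9 (5.30), had its closest companions in RELN, MACROD2, ALPK2, BEX3 and CLU. Likeness was the distance between values of log2(FPKM + 1) centred per gene over the 4 libraries, among 12598 genes, and ran from 0.24 for RELN to 0.37 for CLU. RELN held 0.15 and 0.06 FPKM in KMS18, against 34.57 and 30.07 in KMS28BM. These 4 libraries come from 2 lines, so the likeness is mostly that of the contrast between the lines.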

How the data were processed

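Total RNA from 4 cultures (100 ng each) was sequenced after a TruSeq RNA version 2 preparation, per the labels' protocols. The authors deposited 1 table per library with an expected count, an FPKM value and a mean gene length per gene, per the file headers; no header or label names the counting program. STAR, Bowtie2, HISAT, GRCh37 and hg19 are named in the submitters' processing notes, without roles. The libraries held 37940949 to 39507281 expected counts, and 11100 to 11591 genes reached 1 FPKM.

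Here expected counts and FPKM were summed over rows sharing a symbol, a gene without a row being 0, which gave 22187 genes from 23844 identifiers. Rounded counts were fitted with edgeR 4.0.16 (R 4.3.3; TMM scaling, minimum count 10, cell line and construct as terms, 1 residual degree of freedom), and the script was tested on simulated data. The labels give each line 1 library per construct, so libraries are paired by line and the line is a block. DESeq2 1.42.0 and limma 3.58.1 were alternatives, with other scalings, filters and pseudocounts. Counting intervals are exact at 95%. Gene coordinates come from GENCODE on GRCh38, matched by identifier and not converted. The 9 genes and the lists were chosen with earlier results of these data known. Named genes were, per list, up to 6 with a knockdown call, the 2 highest and the 2 with the largest called line difference. Added to these were the 5 genes nearest in pattern to the one of the 9 with the widest log2(FPKM + 1) range. Others are marked as named after their values were seen, with exceptions. SPI1, IGHM, IGHD, PRKCA, the overlapping genes and most cell type markers carry no such mark. Some genes that the rule names are not reported here.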

Additional observations from a re-analysis of the deposited data

How the results depend on the processing

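Of the 9 genes, 0 were called for the knockdown under the 7 alternatives, 4 were higher and 3 lower in KMS28BM under all of them but DESeq2, which did not call BLNK, and 5 were kept per line at floors of 0.5 and 2 FPKM. The knockdown adjusted p of CD81 ranged from 0.204 to 0.9999. Over all genes, the knockdown calls (531 higher and 781 lower) became 124 and 243 with no filter, where 15 of the calls checked in the lists were lost. They became 0 and 0 without the cell line block (no replicate block, 215 genes at an unadjusted p under 0.05). With limma on log2(FPKM + 1), 542 were higher and 487 lower, 47.3% lower against 59.5%. Limma also lost the calls of FGR, CBL, BACH2, TRAF1, POU2F1 and IRF4, and DESeq2 lost that of TRAF1 and gained IGLC2. These checks took the list genes named by the rule, and ETS1 was not among them. Leaving out a library leaves no residual degree of freedom, so a fold then rests on the other line and has no test; no called gene named here changed sign. Depth limits CD22, SYK, CD40 in KMS18, and BTK and CD79B in KMS28BM, each on 13 counts or fewer.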
